A study of Mus musculus with 6 samples.

Results

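Expression of 10 genes of glucose uptake, early glycolysis and lactate export was followed in mouse haematopoietic progenitors that had received HLX, a homeobox transcription factor. They are Slc2a1, Slc2a3, Hk1, Hk2, Pfkl, Pfkp, Ldha, Pdk1, Slc16a1 and Slc16a3. The genes were taken by symbol, each through its brightest one-symbol probeset by the mean over all 6 arrays, and all 10 were found among 19938 genes. They were picked with earlier results of the same comparison in view, above all the opposite directions of Slc2a1 and Slc2a3, so their differences are descriptions without a test. The HLX vector group held 3 arrays of wild-type young adult FVB/nJ bone marrow cells, sorted as Lin-Kit+Sca-1+ and infected with a lentivirus that carries mouse Hlx and GFP. The control vector group held 3 arrays of the same cells with the GFP lentivirus pCAD-IRES-GFP alone. All samples were exposed to 8 µg/ml polybrene, cultured for 2 days in serum with mouse IL-3, IL-6 and SCF, and sorted again as GFP-positive. No source used here names the promoter that drives the insert, or says whether replicates were separate mice or cultures, so each p-value reflects only how these samples scatter, perhaps for technical reasons.

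Glucose enters blood progenitors through facilitative transporters of the Slc2a family, of which Slc2a1 encodes GLUT1 and Slc2a3 encodes GLUT3, a carrier of high glucose affinity. Hexokinases trap the sugar as glucose 6-phosphate, and phosphofructokinase commits it to glycolysis. Lactate dehydrogenase A turns pyruvate into lactate, PDK1 holds pyruvate back from mitochondrial oxidation by phosphorylating pyruvate dehydrogenase, and the monocarboxylate transporters encoded by Slc16a1 (MCT1) and Slc16a3 (MCT4) carry lactate across the plasma membrane. Stem cells of the marrow are known for a glycolytic metabolism in a poorly oxygenated niche, and many of these genes are textbook targets of the hypoxia-inducible factor HIF-1 and of MYC.

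The overexpressed gene was examined first. Hlx had log2 levels of 10.75, 9.74 and 10.28 in HLX arrays 1 to 3, against 6.99, 7.29 and 7.62 in control arrays 1 to 3. Every HLX array lay above every control array, with p = 0.1 in an exact 2-sided permutation test, which cannot go lower with 3 arrays a group. Array medians lay between 6.32 and 6.40. Of the early progenitor markers 6 of 7 measured, Kit and Cd34 among them, were above the median of the probesets and Slamf1 was not. Also above that median were 5 of 5 megakaryocyte and platelet, 4 of 5 erythroid, 4 of 10 mature granulocyte and monocyte and 3 of 6 stromal and endothelial markers. None of the 6 lymphoid or 5 mast cell and basophil markers lay above it by the mean over all arrays. Ly6a, the gene of Sca-1, was not analysed here. Across all genes the limma fit called 0 at an adjusted p under 0.05 and 958 at an unadjusted p under 0.05. Of those 958 genes 487 were higher and 471 lower with HLX. Median centring of the arrays put 988 genes at an unadjusted p under 0.05, of which 612 were higher and 376 lower.

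Among the glucose carriers, Slc2a1 was higher and Slc2a3 lower with HLX. Slc2a1 had log2 levels of 8.97, 8.77 and 8.95 in HLX arrays, against 8.43, 8.29 and 8.34 in control arrays. The groups did not overlap, and the lowest HLX array was 0.34 log2 units above the highest control array. The log2 difference was 0.55 ± 0.10 (moderated SE from limma, n = 3 per group), a 1.46-fold higher level. Slc2a3 had log2 levels of 7.69, 7.12 and 7.38 in HLX arrays, against 8.04, 8.05 and 8.55 in control arrays. Here too the groups were apart, by 0.35 log2 units between the highest HLX and the lowest control array, although both groups were more spread than for Slc2a1. The log2 difference was -0.82 ± 0.19 (moderated SE, n = 3 per group), a 1.76-fold lower level. In bulk RNA a smaller share of cells with a transcript and less transcript per cell cannot be told apart.

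Taken on each array, the log2 ratio of Slc2a1 to Slc2a3 signal was 1.27, 1.65 and 1.57 in HLX arrays, against 0.38, 0.24 and -0.22 in control arrays. Its absolute size has no meaning across different probes, but its shift between vectors can be read. The shift was 1.36 ± 0.21 log2 units (SE from the array ratios, n = 3 per group), or 2.57-fold toward Slc2a1. On the brightest probesets the other pairs of related members gave smaller shifts with larger errors. They were 0.38 ± 0.40 log2 units for Pfkl over Pfkp, 0.11 ± 0.39 for Hk2 over Hk1 and 0.076 ± 0.24 for Slc16a3 over Slc16a1. With the other one-symbol probeset of Hk1 Hk2 over Hk1 shifted by 0.20 ± 0.20. Since the transporter pair was chosen for its difference, this contrast among pairs is a description.

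**Figure D1:**
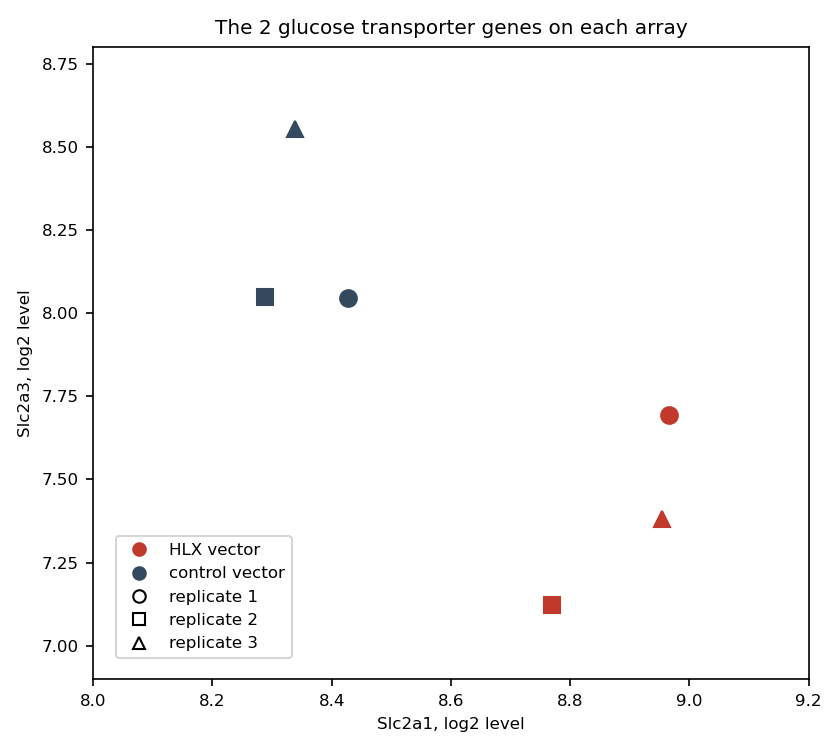
Log2 level of Slc2a1 (horizontal axis) and Slc2a3 (vertical axis) on each of the 6 arrays, with HLX vector arrays in red, control vector arrays in dark blue and the marker shape giving the replicate number. The 3 HLX arrays lie at high Slc2a1 and low Slc2a3, and the 3 control arrays at the opposite corner.

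Levels of the early enzyme genes overlapped between the vectors. Hk2, the hexokinase that proliferating cells induce, had log2 levels of 8.73, 7.63 and 7.83 in HLX arrays, against 8.11, 7.73 and 7.99 in control arrays. HLX replicate 1 was the highest of the 6 arrays and HLX replicate 2 the lowest, and the mean difference was 0.11 ± 0.28. Without HLX replicate 1 it was -0.22. Pfkl, the liver-type phosphofructokinase subunit, had 8.54, 7.67 and 7.92 in HLX arrays, against 7.82, 7.61 and 7.89 in control arrays. The same array stood out, and the difference of 0.27 ± 0.22 was 0.019 without HLX replicate 1. Pfkp, the platelet-type subunit, had 7.78, 8.14 and 7.81 in HLX arrays, against 8.23, 8.08 and 7.76 in control arrays. It was lower on average with HLX (-0.11 ± 0.16), with both groups spread over a similar range, and the difference was -0.011 without control replicate 1 and -0.25 without control replicate 3.

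Hk1, the hexokinase of most tissues, needs care over its probes. Its brightest one-symbol probeset had log2 levels of 11.73, 11.85 and 11.81 in HLX arrays, against 11.77, 11.72 and 11.90 in control arrays, a difference of 0.0016 ± 0.096. In the platform annotation that probeset rests on a single GenBank entry with no RefSeq mRNA, and the same entry is listed for 16 probesets that the annotation pairs with both Hk1 and Rpl17, a ribosomal protein gene. Those 16 probesets had log2 levels from 11.12 to 12.54. After centring each profile on its own mean, the brightest Hk1 probeset differed from their average by 0.066 log2 units (root mean square over 6 arrays), and the other one-symbol Hk1 probeset, which lists RefSeq mRNAs of Hk1, by 0.23. On that other probeset Hk1 had 8.89, 8.33 and 8.50 in HLX arrays, against 8.85, 8.58 and 8.55 in control arrays. The groups overlapped there as well, with a difference of -0.087 ± 0.16. Whether the brightest probeset reports Hk1 was not tested.

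At the pyruvate branch, both genes were higher on average with HLX. Ldha had log2 levels of 10.11, 10.01 and 10.03 in HLX arrays, against 10.01, 9.79 and 9.80 in control arrays. The groups did not overlap, by only 0.0024 log2 units between HLX replicate 2 and control replicate 1, and the difference was 0.18 ± 0.10 (1.13-fold). Pdk1 had 7.82, 7.40 and 7.95 in HLX arrays, against 7.44, 7.66 and 7.39 in control arrays. HLX replicate 2 lay among the control arrays, and the difference of 0.23 ± 0.16 was 0.12 without HLX replicate 3 and 0.39 without HLX replicate 2.

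The lactate carriers were higher on average with HLX, with overlap. Slc16a1 had log2 levels of 8.42, 7.78 and 7.72 in HLX arrays, against 7.71, 7.51 and 7.89 in control arrays. HLX replicate 1 again stood above the other 5 arrays, and the difference of 0.27 ± 0.20 was 0.046 without it. Slc16a3, the carrier typical of strongly glycolytic cells, had 7.99, 7.34 and 7.99 in HLX arrays, against 7.47, 7.26 and 7.55 in control arrays. HLX replicates 1 and 3 were above all control arrays and HLX replicate 2 was not, for a difference of 0.35 ± 0.19 (1.27-fold). Without HLX replicate 2 the difference was 0.56.

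**Figure D2:**
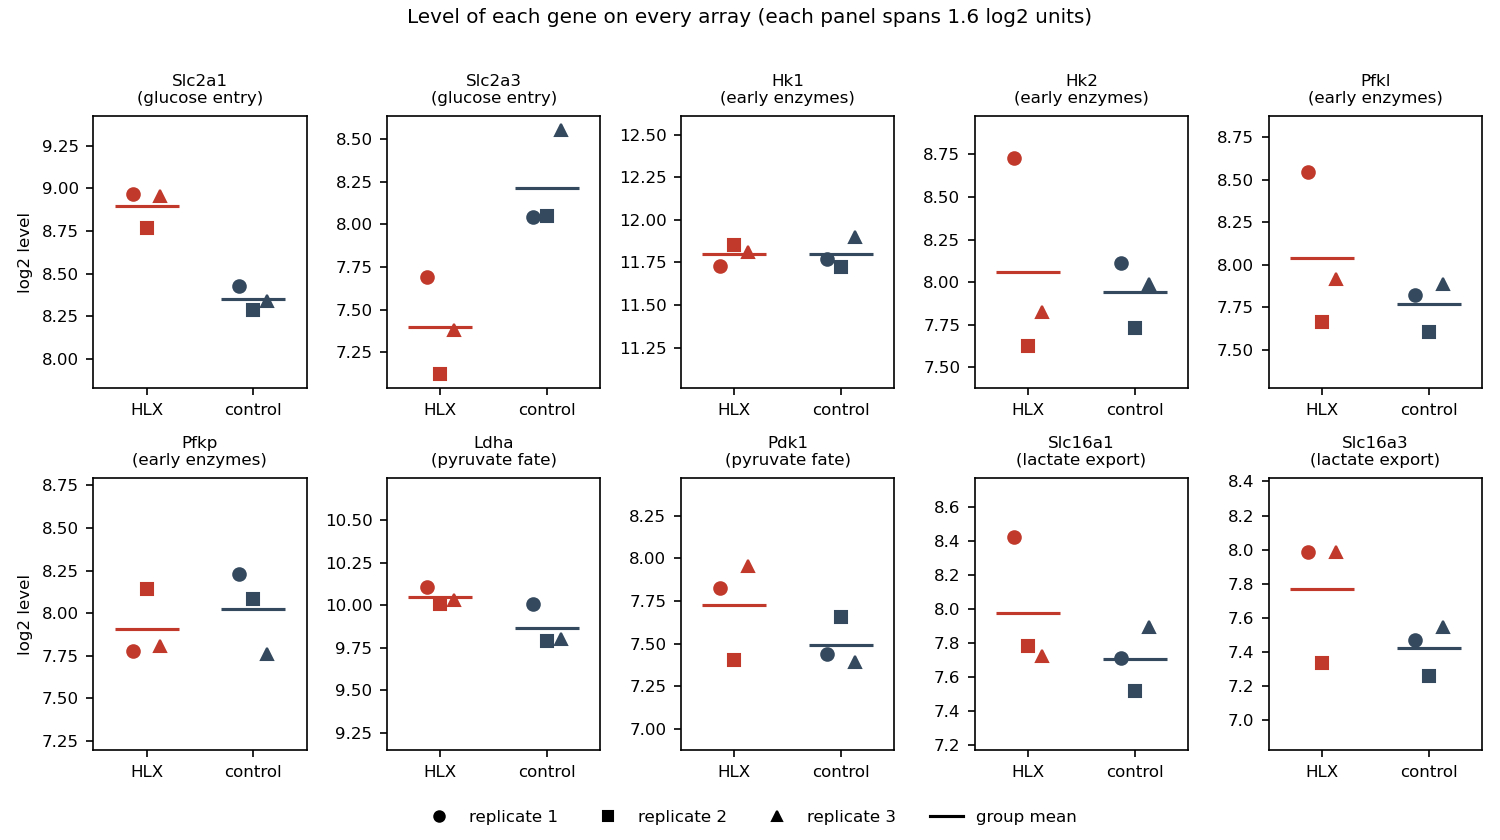
Log2 level of each of the 10 genes on every array, HLX vector in red at the left and control vector in dark blue at the right of each panel. Marker shapes give the replicate number and lines the group means. Slc2a1 and Slc2a3 show groups apart in opposite directions, Ldha groups that barely separate, and Hk2, Pfkl and Slc16a1 a single high array, HLX replicate 1.

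Over the 10 genes 8 were above 0 (Hk1 by 0.0016) and 2 below, with a median log2 difference of 0.21, and among all genes 47.5% were above 0 with a median of -0.0078. Groups did not overlap in 3 of the 10, beside 9.19% of all genes. Slc2a1 and Ldha were higher without overlap, as were 4.34% of all genes, and Slc2a3 lower, as were 4.85%. At an unadjusted p under 0.05 from limma stood 2 of the 10, Slc2a1 and Slc2a3, beside 4.8% of all genes, and at an adjusted p under 0.05 stood 0 of the 10, beside 0% of all genes. Because the genes were chosen on this contrast, nothing is read from these counts. As a description, 208 genes including itself, 1.04% of those measured, had a difference at least as high as that of Slc2a1. For Slc2a3, 41 genes including itself, 0.206%, were as low or lower. The other members lay within the 5th to 95th percentile of all genes, -0.28 to 0.30, except Slc16a3.

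**Figure D3:**
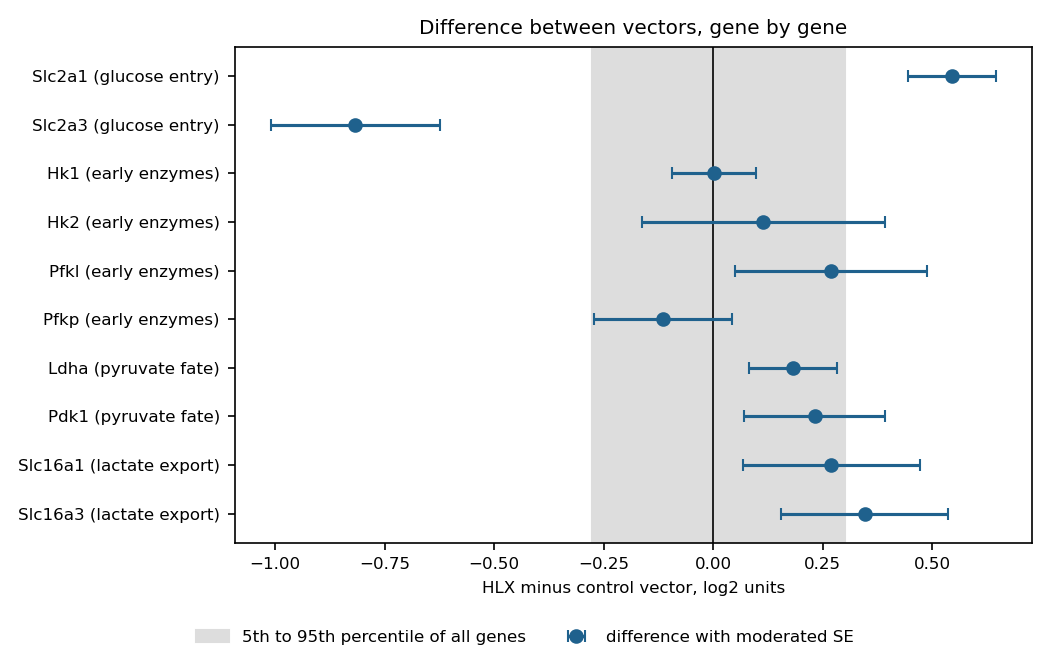
Difference between HLX and control vector for each of the 10 genes in log2 units, as points with bars for the moderated SE (n = 3 per group). The grey band spans the 5th to 95th percentile of all 19938 genes. Slc2a1 and Slc2a3 lie outside it on opposite sides, and Slc16a3 just above it.

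The arrays of each vector also had an order in these genes, noticed after the values were seen and given as a description. HLX replicate 1 was the highest of the 3 HLX arrays in 7 of the 10 genes, beside 29.8% of all genes. Those were Slc2a1, Slc2a3, Hk2, Pfkl, Ldha, Slc16a1 and Slc16a3. Relative to the mean of the HLX arrays, HLX replicate 1 deviated by 0.67 log2 units for Hk2, 0.50 for Pfkl and 0.45 for Slc16a1. HLX replicate 2 was the lowest of the 3 HLX arrays in 7 of the 10 genes, beside 41.7% of all genes, with deviations of -0.43 for both Hk2 and Slc16a3. In 5 genes, Slc2a1, Hk2, Pfkl, Ldha and Slc16a3, replicate 2 was the lowest array of each vector, beside 11.9% of all genes. It was also the HLX array with the lowest Hlx level, and replicate 1 the one with the highest. In Slc2a1 the deviations within a vector were small, from -0.13 to 0.08. Among 15 other genes known to be induced by hypoxia, such as Vegfa and Bnip3, HLX replicate 1 was the highest HLX array in 5. Among 15 other glycolytic enzyme genes it was so in 5 as well. Among markers it was so in 4 of 7 early progenitor, 3 of 5 megakaryocyte and 3 of 5 mast cell genes. It was so in 1 of 6 lymphoid and 0 of 6 stromal and endothelial markers. Of the regulators of glucose uptake it was so in 8 of 20, and of the pyruvate entry genes in 2 of 12.

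**Figure D4:**
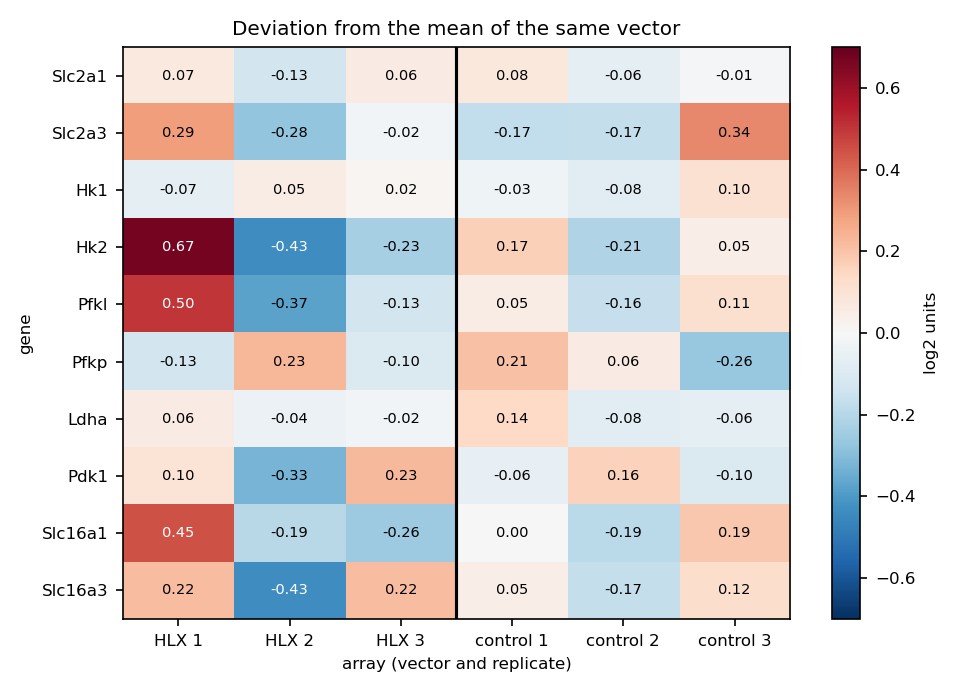
Deviation of each array from the mean of its own vector, in log2 units, for the 10 genes (rows) on the 3 HLX and 3 control arrays (columns). Red is above and blue below the vector's mean. HLX replicate 1 is reddest for Hk2, Pfkl and Slc16a1, and HLX replicate 2 is blue in 8 of the 10 rows.

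The promoter sequences of 9 of the 10 genes were in the RefSeq table of build GRCm38.p6, as 12 windows, and Slc2a3 was not among them. In the 250 bases before each annotated start, 3 short motifs were searched on both strands. ACGTG and GCGTG are cores of the hypoxia response element that HIF-1 binds, and CACGTG is the E-box that MYC and other factors bind, which contains ACGTG on each strand. The windows of Slc2a1, Ldha and Slc16a3 are printed, 5′ to 3′ on the gene's strand with every ACGTG or GCGTG match in capitals (CACGT and CACGC on the opposite strand), because Slc2a1 and Ldha were the genes higher without overlap and Slc16a3 the lactate carrier with the larger difference. They lie at chr4:119108495-119108744, chr7:46845554-46845803 and chr11:120948817-120949066, all on the plus strand.
Slc2a1: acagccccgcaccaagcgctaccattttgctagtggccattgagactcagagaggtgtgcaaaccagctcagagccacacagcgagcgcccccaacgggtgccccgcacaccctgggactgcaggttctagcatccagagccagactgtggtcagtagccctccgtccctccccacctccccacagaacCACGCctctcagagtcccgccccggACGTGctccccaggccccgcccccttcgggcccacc
Ldha: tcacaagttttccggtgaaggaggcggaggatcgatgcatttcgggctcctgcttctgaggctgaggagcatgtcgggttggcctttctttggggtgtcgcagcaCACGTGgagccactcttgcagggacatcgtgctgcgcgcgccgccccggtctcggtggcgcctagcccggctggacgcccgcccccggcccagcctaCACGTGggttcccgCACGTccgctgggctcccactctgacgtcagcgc
Slc16a3: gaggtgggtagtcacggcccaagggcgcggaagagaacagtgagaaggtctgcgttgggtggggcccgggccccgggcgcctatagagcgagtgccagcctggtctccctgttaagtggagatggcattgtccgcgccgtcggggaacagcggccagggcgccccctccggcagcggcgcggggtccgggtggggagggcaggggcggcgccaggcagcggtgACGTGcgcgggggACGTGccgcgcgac

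In these letters Slc2a1 had a GCGTG match and an ACGTG match, the ACGTG beginning at position -36 from the start site. Ldha had 2 CACGTG matches and a further ACGTG match on the opposite strand, and Slc16a3 had 2 ACGTG matches close to its start. Over all members, ACGTG was found in 5 of 12 windows, beside 16.6% of all 32851 windows of this length in the table. GCGTG was found in 7 of 12, beside 28.2%, and CACGTG in 2 of 12, those of Slc16a1 and Ldha, beside 6.02%. Pfkl, Pfkp, Pdk1 and Hk1 held GCGTG alone, and Hk2 and Slc16a3 held ACGTG alone. These are matches of letters and no sites were measured.

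Other genes of the pathway were taken by role. Of 105 listed genes 96 were measured, and 0 passed the adjusted threshold in either direction. At an unadjusted p under 0.05 there were 2 higher and 1 lower, and groups did not overlap in 6, or 6.25%, beside 9.19% of all genes. The median log2 difference of the 96 was -0.023. Of the 24 genes named from these lists for the smallest p, 19 moved by over 1.5 times with 1 array left out. None of the 24 changed sign, which a choice by p in the same data favours.

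Most other measured genes of the Slc2a family were lower on average with HLX, with overlap between the groups in each. Of 10 measured, 2 were above 0 and 8 below, with a median of -0.085 and only 2 above the median level of all probesets. The nearest to a call were Slc2a12 (-0.31 ± 0.15), Slc2a10 (0.20 ± 0.11) and Slc2a2 (-0.14 ± 0.095, moderated SE, n = 3 per group). Their groups overlapped, and all 3 were below that median level.

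The other glycolytic enzyme genes were near 0, with 4 of 15 above it and a median of -0.020. Bpgm, which makes the 2,3-bisphosphoglycerate that loosens oxygen from haemoglobin, was the exception. It had log2 levels of 7.52, 7.39 and 7.25 in HLX arrays, against 7.90, 7.80 and 8.03 in control arrays, so that the groups were apart (-0.52 ± 0.11, adjusted p from limma 0.839). Pkm, the pyruvate kinase gene, was at 0.11 ± 0.10 and Hk3, a hexokinase of myeloid cells, at -0.12 ± 0.12. Among the enzymes that set fructose 2,6-bisphosphate, the activator of phosphofructokinase, 1 of 4 was above 0. Pfkfb4 (-0.12 ± 0.099), Tigar (-0.14 ± 0.13) and Pfkfb2 (0.14 ± 0.20) were all within their errors or close to them.

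Genes of pyruvate entry to mitochondria went both ways, 7 of 12 above 0 with a median of 0.036. Dld, the dihydrolipoamide dehydrogenase shared by the pyruvate complex and others, was at 0.23 ± 0.097 without overlap, and Pdhx, the component that anchors it, at 0.23 ± 0.14. Pdp2, a phosphatase that opposes the PDK kinases, was at -0.23 ± 0.12 without overlap. Among the other monocarboxylate carriers and their chaperones 6 of 13 were above 0. Slc16a10, a carrier of aromatic amino acids, was at 0.39 ± 0.20, Slc16a6 at 0.35 ± 0.19, and Emb, the chaperone embigin, at 0.21 ± 0.12. Slc16a9, named after its values were seen, was the only gene of that list whose groups did not overlap, at -0.15 ± 0.091.

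Of the pentose phosphate enzymes, which branch from glucose 6-phosphate to make NADPH and ribose, 5 of 7 measured were above 0, with a median of 0.20. Pgd, the phosphogluconate dehydrogenase that yields NADPH, had log2 levels of 9.54, 9.91 and 9.76 in HLX arrays, against 9.001, 9.11 and 9.49 in control arrays. All HLX arrays were above all control arrays, with a difference of 0.54 ± 0.16 (1.45-fold, adjusted p from limma 0.932). Rpia, the ribose phosphate isomerase, had 8.64, 8.91 and 7.70 in HLX arrays, against 7.95, 6.85 and 7.99 in control arrays. HLX replicate 3 lay below 2 of the control arrays, and the difference of 0.82 ± 0.40 had the largest error of this list. It was 0.45 without control replicate 2 and 1.179 without HLX replicate 3. Taldo1, the transaldolase, was at 0.21 ± 0.11. Tkt, the transketolase, named after its values were seen because its groups did not overlap, was at 0.088 ± 0.085.

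The known regulators of glucose uptake were flat on average, 8 of 20 above 0 with a median of -0.011. Prkaa1, a catalytic subunit of the energy sensor AMPK, was at -0.37 ± 0.24, and at -0.12 without HLX replicate 3. Tbc1d4, which restrains transporter traffic to the membrane, was at -0.30 ± 0.20, and at -0.11 without control replicate 1. Egln3, an oxygen-sensing hydroxylase and itself a HIF target, was at 0.22 ± 0.15, and at 0.058 without control replicate 2. The other hypoxia-induced genes had 6 of 15 above 0 and a median of -0.027. Ndrg1 was at -0.41 ± 0.22, and at -0.20 without HLX replicate 2. Bnip3l was at 0.24 ± 0.13 and Bnip3 at 0.21 ± 0.12. Groups did not overlap in 0 of these 15 genes or of the 20 regulators, beside 9.19% of all genes.

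**Figure D5:**
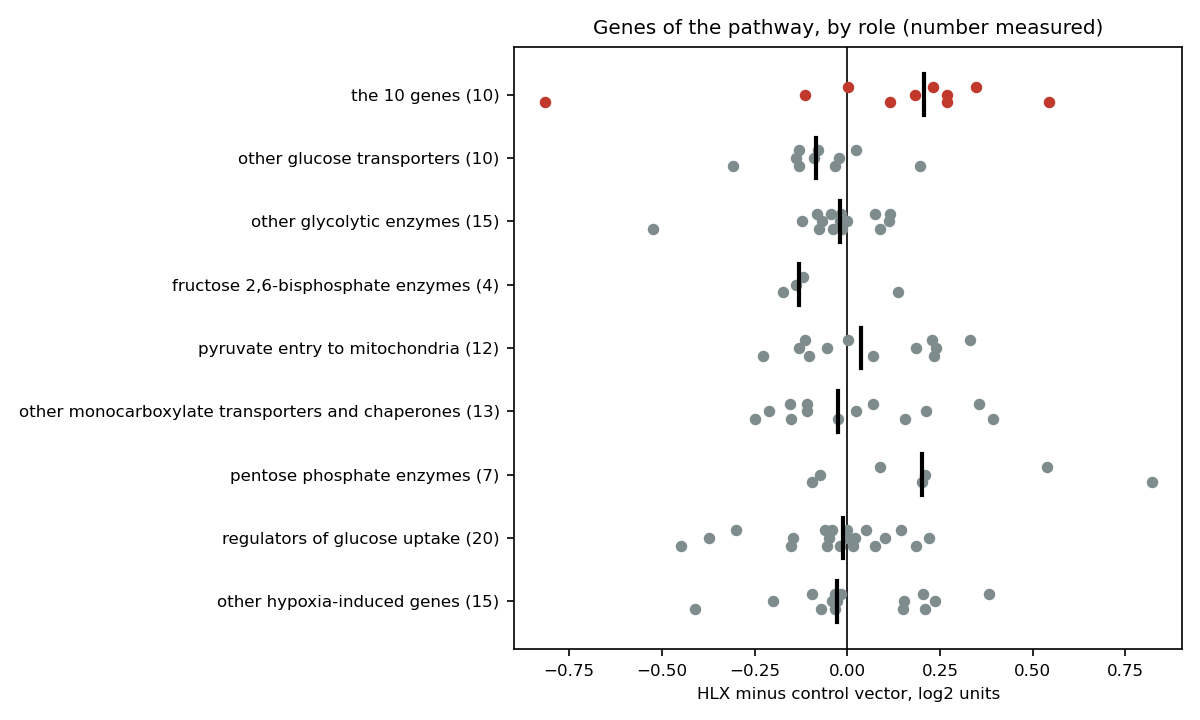
Difference between HLX and control vector in log2 units for the 10 genes (red) and for 96 other genes of the pathway grouped by role (grey), with the median of each group as a black bar and small vertical offsets to separate points. Medians lie near 0 except for the 10 genes (0.21), the pentose phosphate enzymes (0.20), the fructose 2,6-bisphosphate enzymes (-0.13) and the other glucose transporters (-0.085).

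Genes whose pattern over the 6 arrays was most like that of each transporter gene were found by the root mean square difference of centred log2 levels, among 10389 other genes brighter than the median probeset. For Slc2a1 these were Slc35b1, a carrier of nucleotide sugars or ATP into the secretory pathway, at 0.073 log2 units, then Paxip1 (0.085), Fxr2 (0.087), Pld4 (0.088) and Foxn2 (0.091). For Slc2a3 the nearest were Mettl25 (0.13), Rab31 (0.15), Disp1 (0.16), Crat (0.20) and Mecom, a regulator of stem cells (0.21). Mecom had log2 levels of 6.93, 6.16 and 6.49 in HLX arrays, against 7.54, 7.11 and 7.37 in control arrays. As with Slc2a3, HLX replicate 2 was the lowest array and all control arrays were above all HLX arrays. Mecom was picked for its likeness to Slc2a3, so these shared features follow from the choice and are a description. Among the other 9 members the nearest to Slc2a1 was Ldha, at 0.19 log2 units, followed by Slc16a3 at 0.20.

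Markers of other cells also differed between the vectors in part. The lymphoid markers were below 0 in 5 of 6. Their mean log2 level per array was 5.01 to 5.08 in HLX arrays, against 5.22 to 5.28 in control arrays. Of these Dntt was at -0.96 ± 0.27 without overlap, and the others lay from -0.079 to 0.052 with overlap. Mast cell and basophil markers were below 0 in 4 of 5, at 4.70 to 4.85 in HLX arrays, against 6.15, 4.97 and 4.76 in control arrays 1 to 3. Control replicate 1 stood apart there, with Cpa3, a mast cell protease gene, at 7.47 and Gzmb at 7.66, and without that array the difference was 0.58 for Slc2a1 and -0.90 for Slc2a3. Megakaryocyte and platelet markers were below 0 in 2 of 5, at 7.68 to 7.99 in HLX arrays, against 7.37 to 8.25 in control arrays. Mature granulocyte and monocyte markers were above 0 in 7 of 10, at 6.13 to 6.47 in HLX arrays, against 6.08 to 6.20 in control arrays. In 5 of these 10 the groups did not overlap, beside 9.19% of all genes, and 4 stood at an unadjusted p under 0.05 from limma, beside 4.8%. Csf1r, the receptor of the macrophage growth factor, was at 1.36 ± 0.53, Itgam, the integrin CD11b, at 0.89 ± 0.22 and Lyz2, a lysozyme of myeloid cells, at 0.70 ± 0.13, all 3 without overlap. For Csf1r the groups barely separated, with HLX replicate 1 at 6.49 and control replicate 2 at 6.48. HLX replicates 2 and 3 had Csf1r at 7.80 and 8.92. Mpo, the myeloperoxidase gene of granulocyte precursors, was at -1.16 ± 0.38 with overlap. S100a9, S100a8, Elane and Ngp lay from 0.015 to 0.17 with overlap, and all were below the median level of all probesets. Camp and Ly6g were lower without overlap, at -0.19 ± 0.10 and -0.15 ± 0.095, and both were also below that median level. Erythroid markers, of the lineage in which Bpgm has its main role, were below 0 in 4 of 5. Their means were 7.15 to 7.31 in HLX arrays, against 7.21 to 7.31 in control arrays. They went both ways, with Gata1 higher (0.27 ± 0.11) and Klf1 lower (-0.20 ± 0.13), each without overlap. Epor, Tfrc and Slc4a1 lay from -0.075 to -0.020 with overlap. Groups thus did not overlap in 2 of 5, beside 9.19% of all genes. Early progenitor markers were below 0 in 6 of 7, at 8.33 to 8.46 in HLX arrays, against 8.48 to 8.57 in control arrays. Of these Flt3 was at -0.68 ± 0.16 without overlap, and the others lay from -0.17 to 0.088 with overlap. Stromal and endothelial markers were below 0 in 5 of 6, at 6.43 to 6.57 in HLX arrays, against 6.51 to 6.62 in control arrays. Of these Pecam1 was at -0.34 ± 0.11 without overlap, and the others lay from -0.14 to 0.0087 with overlap. The part of these cells in the differences of Slc2a1 and Slc2a3 was not tested.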

How the data were processed

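RNA from 5000 to 10000 sorted cells per sample was measured on microarrays after whole-transcriptome amplification of 3 ng, per the labels' protocols. Per the submitters' processing notes, the authors used Affymetrix Power Tools and RMA, and the deposited values are log2 levels of probesets, a scale read from their range. RMA removes most shifts common to an array and compresses weak signals. The files give no detection calls, and the number of arrays limits the precision. Of 35556 probesets 21789 had 1 gene symbol in the platform annotation, 1621 several and 12146 none listed. The brightest one-symbol probeset stood for each gene. HLX and control vector were compared with limma 3.58.1 (lmFit and eBayes, R 4.3.3), by a 2-sided test at a threshold of 0.05 after Benjamini-Hochberg adjustment across 19938 genes. Differences are HLX minus control. The code was tested on simulated data. Replicate numbers were not used as pairs, since the labels do not say what a replicate number shares. Deviations of same-numbered arrays correlated at 0.20, 0.0085 and 0.14 over all genes. Those of unlike-numbered arrays correlated at -0.23 to 0.11.

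The members, gene lists and tests were chosen with earlier results of these data known. All members were named. From each pathway list the 3 genes with the smallest p were named, and for each transporter gene the 5 of most like pattern, leaving out predicted genes, clones and small RNAs. Genes of the lists with no one-symbol probeset, Gapdh among them, were not analysed here. Alternatives were a filter on dim genes, 3 normalizations, the mean of a gene's probesets, a replicate block, a trended and robust prior, array weights and leaving out each array.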

Additional observations from a re-analysis of the deposited data

How the results depend on the processing

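The shift of Slc2a1 against Slc2a3 was 1.19 to 1.48 log2 units with 1 array left out and 1.34 to 1.36 under the other alternatives. Every HLX array had a higher ratio than every control array, so leaving out 1 array could not change its direction. The pair was also chosen for this difference, so the kept direction is a description. The number of members above 0, 8 of 10, was 7 or 8 in each fit. It was 7 with array weights, where Hk1 was at -0.018, and 7 with the other one-symbol probeset of Hk1, where Hk1 was at -0.087. The mean of a gene's probesets also gave 7, with Hk1 at -0.043. Without HLX replicate 1 it was 7 because Hk2 was at -0.22. Leaving out HLX replicate 2 or 3, or control replicate 1 or 2, gave 7 as well, with Hk1 below 0. For the members, array weights, the trended and robust prior and that Hk1 probeset were chosen after seeing the data. Array weights put Hk2 at 0.26. With 1 array left out Slc2a1 ranged from 0.51 to 0.61 and Slc2a3 from -0.96 to -0.65. Hk2 ranged from -0.22 to 0.33, Pfkl from 0.019 to 0.46 and Slc16a1 from 0.046 to 0.40, their lowest values without HLX replicate 1. Pfkp ranged from -0.25 to -0.011, Pdk1 from 0.12 to 0.39 and Slc16a3 from 0.24 to 0.56. Among all genes 0 were called in every fit but that with the trended and robust prior, which called 1, Hlx, at a difference of 2.95 and an adjusted p of 0.0377. Over all fits its adjusted p ran from 0.0377 to 0.638 and its difference from 2.71 to 3.21. The replicate block moved no count of calls, which stayed at 0 (Hlx 2.95, adjusted p from limma 0.638), and not every same-numbered pair of arrays correlated. With that block 1205 genes stood at an unadjusted p under 0.05 from limma, beside 958 in the main fit. No pathway gene outside the members was called in any fit. The 34 other genes named for a small p or for likeness to a transporter gene kept their direction. That choice, made in the same data, favours a kept direction. Differences under about the median spread between replicates, 0.16 log2 units, are hard to see with 3 arrays a group. That spread is no limit of detection, since far larger differences were not called either. In the main fit Hlx, at 2.95, had an adjusted p from limma of 0.0782.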

Other observations

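A further pathway gene is given here for its wide spread within each vector, after its values were seen. Pfkfb3, which makes the activator of phosphofructokinase in proliferating and hypoxic cells, had log2 levels of 9.02, 8.16 and 8.44 in HLX arrays, against 9.04, 7.94 and 9.16 in control arrays. Replicate 2 was the lowest array of each vector, as it was for Slc2a1, Hk2, Pfkl, Ldha and Slc16a3. The difference between vectors was -0.17 ± 0.35 (moderated SE, n = 3 per group).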
